A study of Homo sapiens with 12 samples.

Results

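System xc- is the plasma membrane exchanger that brings cystine into the cell in return for glutamate. Its 2 chains are encoded by SLC7A11, the light chain that carries the transport pore (also called xCT), and SLC3A2, the heavy chain that brings the light chain to the cell surface (also called CD98hc or 4F2hc). Both genes were taken by symbol from a table of 19293 protein-coding genes, and both were found, SLC7A11 as ENSG00000151012.13 and SLC3A2 as ENSG00000168003.16. Their RNA was read by sequencing from HT1080 cells, a long-established line from a human fibrosarcoma. The 12 libraries form 4 groups of 3: no treatment, interferon gamma (IFNγ, 10 ng/ml), radiation (20 Gy), and IFNγ with radiation at the same doses. Harvest was at 24 h in the treated groups, and the labels name no transgene or deletion in any group.

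Imported cystine is reduced to cysteine, the limiting building block of glutathione, and glutathione is what GPX4 spends to remove lipid peroxides. Cells that cannot import enough cystine can die by ferroptosis, a form of death driven by iron and lipid peroxidation, and HT1080 is a much used model of it. SLC7A11 transcription is known to be driven by ATF4 when amino acids are short and by NRF2 (encoded by NFE2L2) under oxidative stress, and to be restrained by ATF3. The heavy chain is shared: SLC3A2 also pairs with SLC7A5, SLC7A6, SLC7A7, SLC7A8 and SLC7A10, which carry other amino acids.

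Total counts per library ran from 9675126 to 11010656. Separate cultures for the 3 replicates of a group are not stated, so every p-value below rests on library-to-library spread that may be technical. The 6 mesenchymal markers VIM, FN1, SPARC, CDH2, CD44 and S100A4 summed to between 8890 and 10200 counts per 1000000 (CPM) in every library. VIM was the largest part, with group means from 4208.7 to 5489.5 CPM. S100A4 was barely detected, with group means from 1.04 to 1.57 CPM, so the sum does not show its expression. The 4 immune markers PTPRC, CD3E, CD14 and LYZ summed to at most 1.1 CPM in every library except irradiated replicate 2, where the sum was 4.42 CPM. That library also held 59 counts of GBP5, a gene nearly silent without IFNγ, against 10 and 3 in the other irradiated libraries, and its part in the results below was checked by leaving it out. In bulk RNA, fewer cells expressing a gene and less RNA per cell cannot be told apart.

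SLC7A11 was highest in untreated cells and lower in each treated group. Untreated replicates 1, 2 and 3 held 96.8, 114 and 114 CPM, from 1032, 1208 and 1121 counts. The IFNγ libraries held 71.4, 82.4 and 81.1 CPM, and the irradiated libraries 31.3, 35.2 and 34.3 CPM. Cells given both treatments held 12.5, 15.1 and 14.6 CPM, from only 127, 160 and 159 counts. The groups did not overlap in any of the 5 pairwise comparisons, but the share of all genes for which this holds was not counted. The order untreated, IFNγ, radiation, both held for every library. As background, the share of all tested genes called in either direction was 29.1% for IFNγ, 56.1% for radiation and 62.1% for both, each against untreated. It was 60.7% for both against IFNγ alone and 26.9% for both against radiation alone.

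SLC3A2 followed the same order, with most of the drop at the step to radiation. Its levels were 156, 150.0 and 148 CPM in untreated libraries and 143, 142 and 134 CPM after IFNγ. They were 65.3, 60.5 and 60.9 CPM after radiation and 55.2, 53.9 and 53.0 CPM after both. Untreated and IFNγ libraries were separated by only 5.66 CPM and irradiated and combination libraries by 5.24 CPM. The corresponding gaps for SLC7A11 were 14.4 and 16.2 CPM on lower levels.

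**Figure D1:**
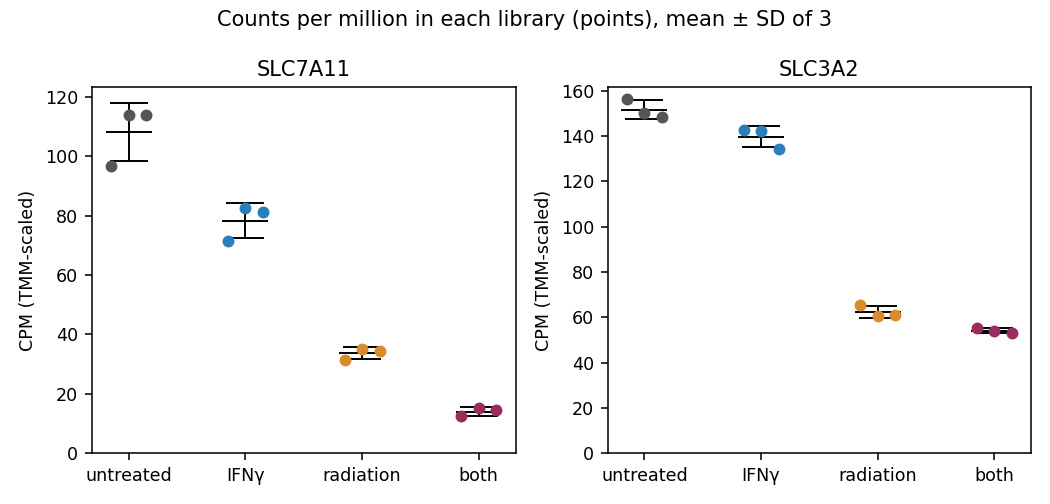
Level of SLC7A11 (left) and SLC3A2 (right) in CPM in each of the 12 libraries, as points coloured by group, with black bars for the mean ± SD of 3 libraries; both axes start at 0. SLC7A11 steps down at each group, to 12.5 to 15.1 CPM in cells given both, while SLC3A2 falls mainly between the IFNγ and radiation groups.

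Per length of annotated exon, SLC3A2 was the more abundant of the chains in every group. With the 9645 exon bases of SLC7A11 and the 5178 of SLC3A2 in GENCODE release 29, untreated cells held 11.2 ± 1.01 CPM per kb of SLC7A11 and 29.3 ± 0.81 CPM per kb of SLC3A2 (mean ± SD, n = 3). The ratio of light to heavy chain per kb was 0.383 in untreated cells, 0.301 after IFNγ, 0.29 after radiation and 0.14 after both. The absolute ratio depends on which exons are used, since the longest single SLC3A2 transcript has 2222 bases and would raise the SLC3A2 level to 68.2 CPM per kb in untreated cells. Length cancels in the change of the ratio between groups as long as the exons in use stay the same.

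The IFNγ comparison asked what the cytokine did to the transporter in cells that had not been irradiated. SLC7A11 fell to 72.4% ± 5.55 of its untreated level (SD, n = 3). In log2 terms this was -0.46 ± 0.0576 (SE), adjusted p = 2.51e-08 in edgeR's quasi-likelihood test. SLC3A2 fell to 92.2% ± 3.08 (log2 -0.12 ± 0.0405, adjusted p = 0.0226). Of all genes tested, 14.1% were called lower and 15% higher in this comparison, so a call by itself sets neither chain apart. The SLC3A2 call ended in DESeq2 (adjusted p = 0.0747), without a filter on low counts (0.0611), without untreated replicate 1 (0.0969) and without IFNγ replicate 3 (0.14).

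Radiation alone had a much larger effect on both chains. SLC7A11 fell to 31.1% ± 1.88 of untreated (log2 -1.68 ± 0.0695, adjusted p = 7.49e-23). SLC3A2 fell to 41.1% ± 1.77 (log2 -1.28 ± 0.0465, adjusted p = 1.3e-31). Lower calls made up 28.2% of all genes in this comparison. By size of log2 fold change, SLC7A11 was number 32 and SLC3A2 number 77 from the lowest of 12160 tested genes. Without irradiated replicate 2, SLC7A11 stood at -1.72.

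With both treatments SLC7A11 was left at 13% ± 1.31 of untreated, 7.69-fold lower, and SLC3A2 at 35.7% ± 0.737, 2.8-fold lower. The log2 fold changes were -2.94 ± 0.0903 for SLC7A11 (adjusted p = 8.79e-29) and -1.49 ± 0.0474 for SLC3A2 (adjusted p = 9.54e-35), in a comparison where 31.2% of genes were called lower and 30.9% higher. By size of log2 fold change SLC7A11 was number 4 from the lowest of all 12160 tested genes. A mean log2 CPM of 2 or more was reached by 10489 tested genes. Of these a single gene, FAM111B (-3.13 ± 0.109), had a lower log2 fold change than SLC7A11. FAM111B, named after its values were seen, stood at -3.30 after radiation alone and at 0.17 ± 0.148 for IFNγ in irradiated cells. All 3 comparisons against untreated share the same untreated libraries.

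Whether IFNγ acted differently on irradiated and unirradiated cells was tested as an interaction. In irradiated cells IFNγ lowered SLC7A11 by 58.2% (log2 -1.26 ± 0.0999, adjusted p = 1.34e-13), against 27.6% in unirradiated cells. The difference of these effects was -0.79 ± 0.115 on the log2 scale, with a 95% interval from -1.02 to -0.57 and an adjusted p of 2.29e-05. An interaction was called for 2.38% of all genes, negative for 0.995% and positive for 1.38%. By size the SLC7A11 interaction was number 112 from the lowest of 12160 tested genes. Among the 10489 with a mean log2 CPM of 2 or more it was number 21. Without irradiated replicate 2 the SLC7A11 interaction was -0.76 (adjusted p = 0.000303) and the IFNγ effect in irradiated cells -1.22. Read from the other side, radiation removed 68.9% of SLC7A11 RNA without IFNγ and 82% with it (log2 fold change -2.48 ± 0.0921, adjusted p = 2.33e-25, where 30.4% of genes were called lower and 30.3% higher).

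The heavy chain gave no such call. IFNγ lowered SLC3A2 in irradiated cells by 13.2% (log2 -0.20 ± 0.053, adjusted p = 0.00223), in a comparison where 12.4% of genes were called lower and 14.5% higher. The interaction for SLC3A2 was -0.09 ± 0.0667 with an adjusted p of 0.586 and a 95% interval from -0.22 to 0.04. This interval lies wholly above that of SLC7A11. Radiation lowered SLC3A2 by 58.9% without IFNγ and by 61.3% with it.

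**Figure D2:**
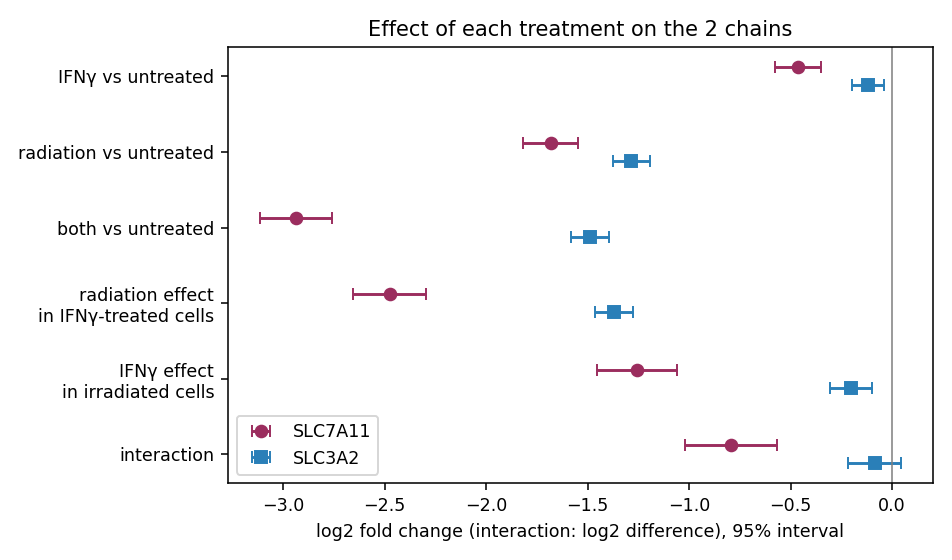
Log2 fold change of SLC7A11 (circles) and SLC3A2 (squares) in 5 pairwise comparisons and the log2 interaction, with 95% intervals from the standard error. SLC7A11 lies further below 0 than SLC3A2 in each row, and the interval of the SLC3A2 interaction, from -0.22 to 0.04, includes 0.

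The size of the combined loss depends on the scale on which single effects are put together. If the fold changes of the single treatments multiplied, cells given both would hold 24.4 ± 1.87 CPM of SLC7A11 (propagated SE), and the measured level of 14.1 ± 0.814 CPM was 0.577 times that. If the losses in CPM added, 3.85 ± 6.73 CPM would remain, and the measured level was higher by 10.2 ± 6.78 CPM. With IFNγ, SLC7A11 fell by 29.8 CPM in unirradiated cells and fell by 19.6 CPM in irradiated cells. The effect in irradiated cells was thus larger in proportion but not in CPM, where the difference was not tested. For SLC3A2 the multiplied value was 57.4 ± 2.02 CPM and the added value 50.4 ± 3.94 CPM, on either side of the measured 54.1 ± 0.645 CPM.

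**Figure D3:**
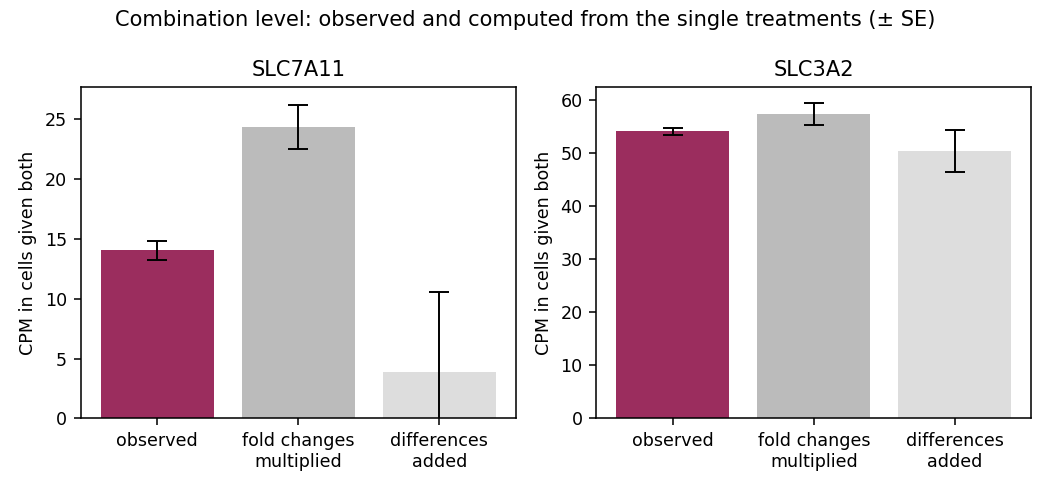
CPM of SLC7A11 (left) and SLC3A2 (right) in cells given both treatments: measured mean (dark bar), value if the 2 single fold changes multiplied and value if the 2 single losses in CPM added, each ± SE, with axes from 0. For SLC7A11 the measured 14.1 CPM lies below the multiplied 24.4 CPM and above the added 3.85 CPM.

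Because the chains work as a pair, their ratio within each library was compared as well, which needs no scaling between libraries. For every 100 counts of SLC3A2 there were 71.5 ± 8.28 counts of SLC7A11 in untreated cells, 56.1 ± 5.38 after IFNγ, 54.2 ± 5.47 after radiation and 26 ± 3.03 after both (SD, n = 3). The libraries spanned 61.9 to 76.7 without treatment, 50.1 to 60.3 with IFNγ, 48 to 58.3 with radiation and 22.6 to 28 with both, so the IFNγ and radiation groups overlapped with each other but not with the other groups. The mean log2 ratio was -0.49 in untreated cells, -0.84 after IFNγ, -0.89 after radiation and -1.95 after both. The step for each treatment was thus larger where the other was present, a difference not tested for the ratio. Averaged over IFNγ status, the log2 ratio differed by -0.75 with radiation, and averaged over radiation status, by -0.70 with IFNγ. Each had p = 0.005 in a two-sided exact permutation test within strata, the smallest p that its 400 arrangements allow. After adjustment over these 2 tests it was 0.005. Each had 13 alternatives, the same test with a library left out or sign flips of differences between same-numbered replicates. Both kept their direction in all of them, with p of at most 0.03125.

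The known start sites of the heavy chain are shown to let its sequence be read beside these values. RefSeq promoter sequence was matched for 1 of the 2 members, SLC3A2, at 3 annotated starts on chromosome 11 of GRCh38.p14, forward strand. The bases before each start are printed 5′ to 3′, stopping where GENCODE marks an untranslated region. They lie at chr11:62855859-62856101, chr11:62880646-62880871 and chr11:62881449-62881698. Capitals mark matches to the motifs searched on both strands.
SLC3A2 start A: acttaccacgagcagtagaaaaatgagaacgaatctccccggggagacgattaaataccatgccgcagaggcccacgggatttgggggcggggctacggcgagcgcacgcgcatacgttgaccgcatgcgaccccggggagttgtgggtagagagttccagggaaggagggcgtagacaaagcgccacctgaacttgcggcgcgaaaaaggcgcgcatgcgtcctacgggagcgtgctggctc
SLC3A2 start B: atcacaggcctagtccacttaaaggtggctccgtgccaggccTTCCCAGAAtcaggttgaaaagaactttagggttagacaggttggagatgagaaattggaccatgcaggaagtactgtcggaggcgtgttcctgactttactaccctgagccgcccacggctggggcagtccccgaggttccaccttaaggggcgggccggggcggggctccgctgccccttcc
SLC3A2 start C: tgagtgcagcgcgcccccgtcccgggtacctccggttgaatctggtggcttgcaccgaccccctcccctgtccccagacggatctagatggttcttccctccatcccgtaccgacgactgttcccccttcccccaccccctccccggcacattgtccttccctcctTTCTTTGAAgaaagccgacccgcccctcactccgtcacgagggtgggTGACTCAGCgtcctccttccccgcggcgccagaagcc

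Start B held 1 match to TTCNNNGAA, the gamma-activated site of interferon-induced genes, 208 bases before the start. Start C held 1 such match 84 bases before the start and 1 match to TGACNNNGC, the antioxidant response element of NRF2, 37 bases before it, and start A held 0 matches. The amino acid response element TGATGNAA, which ATF4 binds, and the interferon-stimulated response element had 0 matches in the 3 windows. In the 250 bases before each of 35116 RefSeq starts, the gamma-activated site matched in 6.57%, the antioxidant element in 10.9%, the amino acid element in 3.14% and the interferon-stimulated element in 3.02%. A match is a stretch of letters and not a measured binding site.

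Of 8 other light and heavy chains of the family, 4 had enough counts to be tested, and with both treatments 1 rose and 1 fell, near the shares over all genes of 30.9% higher and 31.2% lower. SLC7A5, the light chain that carries large neutral amino acids such as leucine, stood at 498 CPM in untreated cells, 459 after IFNγ, 144 after radiation and 144 after both. Its log2 fold change was -1.79 ± 0.0372 after radiation, near that of SLC7A11, and -0.003 ± 0.0409 for IFNγ in irradiated cells. SLC7A6, which exchanges cationic amino acids, rose with radiation (0.34 ± 0.0722) and fell with IFNγ (-0.29 ± 0.0784). SLC7A8 rose in cells given both (1.36 ± 0.383), to 1.83 CPM, and SLC7A7 stood at 0.46 ± 0.466 there, with no call. SLC3A1, the heavy chain of the kidney cystine carrier, and SLC7A9, SLC7A10 and SLC7A13 were not tested because of low counts.

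Among 18 other amino acid carriers and cystine handling genes, 14 were tested. In cells given both treatments 10 fell and 2 rose, where 31.2% of all genes were called lower and 30.9% higher. The median log2 fold change was -0.69 against -0.001 over all genes. After radiation alone 7 fell and 2 rose, where 28.2% of all genes were called lower and 27.9% higher. SLC1A4, a carrier of alanine, serine and cysteine, went from 15.7 to 2.49 CPM with both treatments (-2.65 ± 0.166), and the glycine carrier SLC6A9 fell to 2.09 CPM (-1.85 ± 0.209). The glutamine carrier SLC1A5 (-1.25 ± 0.0425) and the cationic amino acid carriers SLC7A1 (-1.20) and SLC7A2 (-0.90) fell as well. After IFNγ alone 2 of the 14 fell and 4 rose, where 14.1% of all genes were called lower and 15% higher. SLC38A1, a glutamine carrier, was the 1 gene of the list with a called interaction (-0.20 ± 0.0522, adjusted p = 0.0202), and it is named for that value. The call ended in DESeq2 (adjusted p = 0.0613) and without IFNγ replicate 3 (0.0778), irradiated replicate 2 (0.0978) or irradiated replicate 3 (0.0512).

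Genes that use the imported cystine moved in both directions. Of 18 genes of glutathione synthesis and use, 7 fell and 6 rose with both treatments, close to the 31.2% lower and 30.9% higher over all genes. Their median log2 fold change was -0.015, and 0 had a called interaction in edgeR. GCLC, the catalytic subunit of the enzyme that joins cysteine to glutamate, fell with both (-0.79 ± 0.0821), while its modifier GCLM rose with IFNγ (0.52 ± 0.0469), fell with radiation (-0.37 ± 0.0515) and stood at -0.04 ± 0.0492 with both. CHAC1, which breaks glutathione down, fell from 7.64 to 0.665 CPM with both (-3.50 ± 0.333). Its homologue CHAC2 (-0.60 ± 0.119) fell, whereas the peroxidase GPX1 (0.79 ± 0.038) and GGT1, which splits glutathione outside the cell (1.45 ± 0.193), rose. GPX4 was at 75.2 ± 3.83 CPM in untreated cells and 74.6 ± 3.86 CPM with both, a log2 fold change of -0.01 ± 0.0498, and it was lower with IFNγ (-0.28) and higher with radiation (0.20).

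Cells can also make cysteine from methionine by transsulfuration. Of 10 listed genes of that route and of cysteine breakdown, 9 were tested, and with both treatments 3 rose and 2 fell, beside 30.9% higher and 31.2% lower over all genes. CTH, which releases cysteine from cystathionine, fell with radiation (-0.54 ± 0.175) and with both (-0.55 ± 0.173). CBS, the enzyme before it, stood at -0.62 ± 0.295 with both and was not called, with 1.3 CPM there. MAT2A, which makes S-adenosylmethionine, fell slightly (-0.10), and the persulfide dioxygenase ETHE1 (0.70 ± 0.155), the transaminase GOT1 (0.12) and AHCY, which makes homocysteine (0.10), rose. MTR (0.02), CSAD (0.15) and MPST (-0.04) were not called with both, CDO1 was not tested, and 0 of the 9 had a called interaction in edgeR.

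Regulators known to act on SLC7A11 were read beside it. Of 20 such genes, 6 rose and 9 fell with both treatments, where 30.9% of all genes were called higher and 31.2% lower. ATF4 went from 419 CPM in untreated to 178 after radiation and 170 after both, a log2 fold change of -1.30 ± 0.0336 with both, and the IFNγ effect on it was -0.02 ± 0.0311 in unirradiated and -0.07 ± 0.0361 in irradiated cells. ATF3 rose in each treated group, from 5.4 ± 0.313 CPM to 12.2 ± 0.862 after IFNγ, 10.8 ± 1.1 after radiation and 29.4 ± 2.06 after both (log2 2.45 ± 0.122). The interferon-induced factor IRF1 rose by 4.81 ± 0.244 after IFNγ. MDM2, which DNA damage induces, rose by 2.14 ± 0.0321 after radiation. BACH1, which competes with NRF2 at its sites, rose after IFNγ (0.97 ± 0.0483) and less with both (0.56 ± 0.0496). NFE2L2 rose after IFNγ (0.30), fell after radiation (-0.17) and stood at -0.01 with both, and KEAP1, which holds NRF2 down, was at 0.12 with both and was not called.

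Of the 20 regulators 2 had a called interaction, both negative: STAT3 (-0.48) and BACH1 (-0.32). A negative interaction was called for 0.995% of all genes and either sign for 2.38%. For STAT3 and BACH1 the rise after IFNγ was smaller in irradiated cells on the log2 scale, unlike SLC7A11, whose fall was larger. Radiation alone raised STAT3 (0.95 ± 0.0459), so IFNγ took it from 89.3 to 193 CPM in unirradiated and from 172 to 267 CPM in irradiated cells. BACH1 went from 67.1 to 131 CPM and from 63.4 to 99.0 CPM. The part of any of these RNAs in the SLC7A11 result was not tested.

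Of 8 listed genes for proteins that bind or stabilise the chains, 3 rose and 2 fell with both treatments, near the 30.9% and 31.2% over all genes. CD44, a surface receptor that stabilises xCT, rose by 0.32 ± 0.0265, and BSG (0.28) and LGALS3 (0.54) rose, while EGFR (-0.30) and the integrin ITGB3 (-0.42) fell. OTUB1, which removes ubiquitin from xCT, stood at 0.07, the xCT-binding BECN1 at 0.08 and the CD98hc-bound integrin ITGB1 at 0.04, and these 3 were not called.

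**Figure D4:**
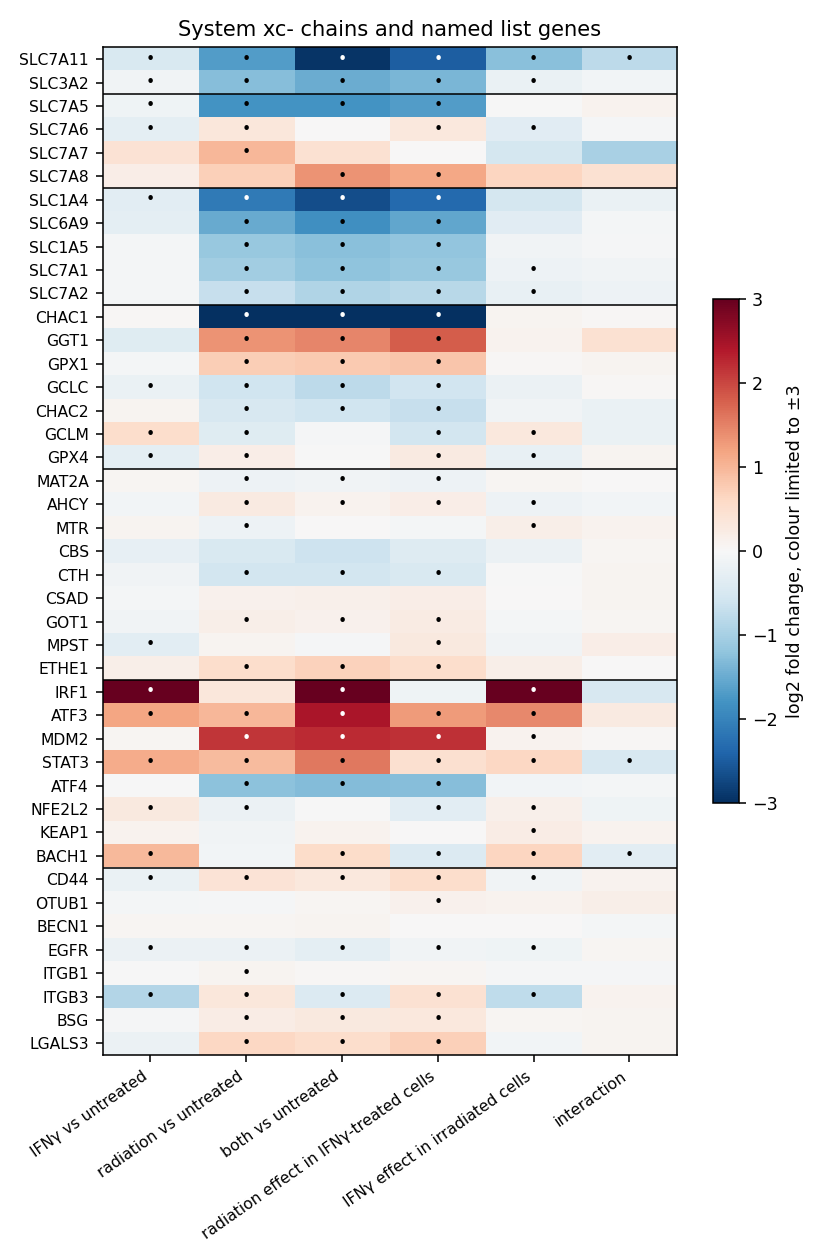
Log2 fold change (colour, limited to ±3) of SLC7A11, SLC3A2 and the named tested genes of 6 lists, separated by lines, in 5 pairwise comparisons and the interaction, 43 genes in all; a dot marks an adjusted p under 0.05. SLC7A11 has a dot in every column and is blue in all of them, whereas SLC7A5 and ATF4 are blue mainly in the 3 columns that include a radiation effect.

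Genes of like pattern were ranked over all 12 libraries by the root mean square difference in log2 CPM, each gene centred on its untreated mean, among 10488 genes. Nearest to SLC7A11 were SLC1A4 (0.309), ESM1, a secreted proteoglycan (0.319), the chemokine CXCL8 (0.42), asparagine synthetase ASNS (0.556) and the lipid receptor S1PR1 (0.558). E2F1, WDR76, SLC7A5, MCM6 and CCNE2 followed at 0.561 to 0.623. Pearson r over the 12 libraries ran from 0.88 to 0.963 for these 10 genes, as a description in which all genes share the same libraries. For IFNγ in irradiated cells, where SLC7A11 stood at -1.26, the 10 genes ranged from -0.97 (S1PR1) to 0.16 (E2F1).

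The 5 genes nearest to SLC3A2 differed less from it than those 10 did from SLC7A11. PSAT1 (0.0802) and PHGDH (0.105), the enzymes of serine synthesis, came first, followed by ATF4 (0.113), the transcription factor ETV4 (0.12) and TUBE1 (0.125), with r from 0.988 to 0.995. SLC7A11 itself was number 1770 in nearness to SLC3A2, at a difference of 0.779, while SLC3A2 was number 23 in nearness to SLC7A11. Pearson r between the chains was 0.945, since this difference, unlike r, also grows when genes move together by unlike amounts. PSAT1 stood at -1.30 ± 0.0397 after radiation and -1.45 ± 0.0401 after both, against -1.28 and -1.49 for SLC3A2.

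**Figure D5:**
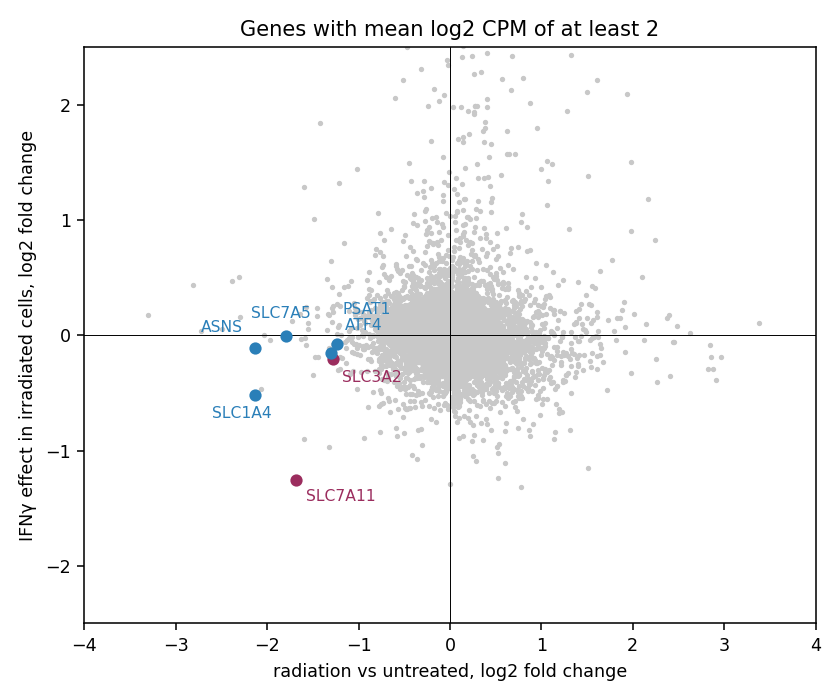
Each grey point is 1 well-measured gene (mean log2 CPM 2 or more), placed by its log2 fold change after radiation (x) and by its log2 fold change for both treatments against radiation alone (y); 66 of 10489 genes lie outside the axes. SLC7A11 lies at -1.68 and -1.26, while SLC7A5, ASNS, ATF4, PSAT1 and SLC3A2 lie at x from -2.13 to -1.23 with y from -0.20 to -0.003, and SLC1A4 at y -0.52.

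Lower in all 4 single-treatment comparisons (each treatment with and without the other) were 168 genes, 1.38% of those tested, and these included both chains. Of the 168, 3 also had a called negative interaction, beside 0.995% of all tested genes: SLC7A11, the coagulation initiator F3 (-0.57 ± 0.116) and PEG10 (-0.20 ± 0.0536). The interaction is computed from the same comparisons, so it is not independent of their use as a filter. F3 and PEG10 are named because the count is small, after their values were seen. The PEG10 call ended in DESeq2 (adjusted p = 0.0816) and without IFNγ replicate 2 (0.0748) or 3 (0.0505), irradiated replicate 2 (0.103) or 3 (0.0618), or combination replicate 3 (0.106). For IFNγ in irradiated cells, SLC7A11 was number 17 from the lowest of all 12160 tested genes. Of the 10489 genes compared by size, 2 had a lower IFNγ effect there, again named after their values were seen. They were PDE5A (-1.32 ± 0.0845) and LONRF2 (-1.29 ± 0.142). After radiation alone these stood at 0.78 and 0.001.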

How the data were processed

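RNA was sequenced in 12 HT1080 libraries. The deposited file holds whole-number counts for each gene and library, which the authors did not normalize. Tools named in the submitters' processing notes are TopHat2 2.0.13 and Cuffdiff 2.2.1, beside FastQC 0.11.3 and Cufflinks, with build hg19. Per the labels' protocols, libraries were stranded total RNA after removal of ribosomal RNA, although the design text names mRNA. How reads were counted, with which strand option and gene models, is not given in the sources used here. SLC7A11 overlaps the antisense gene SLC7A11-AS1 over 865 exon bases in GENCODE release 29, so without a known strand setting their reads cannot be told apart. SLC3A2 overlaps 0 genes there. Since 90.1% of identifiers match that release with version, and it is on another build than the one named, the counted regions have no coordinates here. The promoter coordinates are those of RefSeq on GRCh38.p14.

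In the deposited file the header of the gene columns sits 1 place to the left of its content, and this was allowed for. Counts were fitted with edgeR 4.0.16 in R 4.3.3: filterByExpr (12160 of 19293 genes tested, the rest holding 0.0678% of counts), TMM scaling, 1 robust quasi-likelihood fit over all 12 libraries, and Benjamini-Hochberg adjustment over all genes tested, called at an adjusted p under 0.05. The interaction is the log2 IFNγ effect in irradiated minus that in unirradiated cells. Standard errors are from the fitted quasi-likelihood variance. CPM are per 1000000 of the TMM-scaled total. The script was tested on simulated data. Replicate pairs differed beyond counting noise (chi-square per degree of freedom 1.14 to 2.75 over genes with a mean of at least 20 counts).

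Some genes of the lists are not reported here. The members and gene lists were chosen with earlier results of these data known. Named with values are at most 5 genes per list with the largest change with both treatments, a fixed set of known genes, all of lists of 10 or fewer, and the 10 and 5 genes most like the members (log2 CPM with a prior count of 2). Alternatives were DESeq2 1.42.0, other scalings and filters, fits on the compared groups alone, a replicate block and leaving out each library.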

Additional observations from a re-analysis of the deposited data

Results flagged for a closer look

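Among SLC7A11, SLC3A2 and the genes given above with fold changes of their own, 7 had a called edgeR interaction. This tests the difference in IFNγ effect between irradiated and unirradiated cells itself. SLC38A1, F3 and PEG10 were named above because of that call, so the count of 7 partly reflects how genes were picked. Over all genes tested, an interaction was called for 2.38%, positive for 1.38% and negative for 0.995%. SLC7A11 went from -0.46 without to -1.26 with radiation, a difference of -0.79 ± 0.115 (adjusted p = 2.29e-05). F3 went from -0.28 to -0.85 (-0.57 ± 0.116, adjusted p = 0.00147). STAT3 went from 1.11 to 0.63 (-0.48 ± 0.0606, adjusted p = 3.25e-07) and BACH1 from 0.97 to 0.64 (-0.32 ± 0.0698, adjusted p = 0.00337). ASNS went from 0.25 to -0.11 (-0.35 ± 0.0901, adjusted p = 0.0195), a call that ended in DESeq2 (adjusted p = 0.0866) and without irradiated replicate 1 (0.0522) or 3 (0.0541) or combination replicate 3 (0.0686). PEG10 went from -0.15 to -0.36 (-0.20 ± 0.0536, adjusted p = 0.0239) and SLC38A1 from 0.11 to -0.09 (-0.20 ± 0.0522, adjusted p = 0.0202), and both calls ended in DESeq2. Groups of 3 libraries are too small for a test of single outlying libraries.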

How the results depend on the processing

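The SLC7A11 interaction kept its direction and its call under all 18 alternatives on the log2 scale, from -0.85 to -0.72 with adjusted p of at most 0.000409, and was -0.76 without irradiated replicate 2. The 5 pairwise SLC7A11 results also kept theirs under 19 alternatives each. On the CPM scale the interaction of SLC7A11 was no longer negative, at 10.2 ± 6.78 CPM (SE), and that of SLC3A2 stood at 3.62 ± 3.99 CPM. Neither was tested on this scale. The IFNγ effect on SLC3A2 was -0.12 in DESeq2, -0.11 without a filter on low counts and -0.09 once untreated replicate 1 was dropped, all short of the threshold. It ran from -0.14 to -0.0899 with a library left out, the last value being without IFNγ replicate 3. Its adjusted p ran from 0.00047 to 0.14 over the alternatives. Genes called in the interaction numbered 289, against 136 in DESeq2 and 161 to 332 with a library left out (161 without irradiated replicate 2, 179 without combination replicate 2). List members called there numbered 3, against 2 in DESeq2 and 2 to 6 with a library left out (6 without untreated replicate 2, 2 without IFNγ replicate 3 or irradiated replicate 2 or 3). With library totals in place of TMM, higher genes among those called went from 51.6% to 31.1% for IFNγ against untreated, from 53.9% to 38% for IFNγ in irradiated cells and from 58.1% to 69.4% for the interaction.

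Over genes with a mean log2 CPM of 2 or more, the replicate numbers in the labels showed no clear pairing. Deviations of same-numbered libraries correlated from -0.0835 to 0.104, over 0.1 in 2 of 18 pairs, and 3 of 12 libraries correlated best with their own number. This does not settle pairing for a single gene, and replicate 1 was lowest for SLC7A11 in all 4 groups. Fits with a library left out used edgeR, so a group of 2 shares its spread with the others. With the replicate block the SLC7A11 interaction was -0.79 (adjusted p = 1.43e-08), and no call of either chain changed. With 127 to 160 counts of SLC7A11 per combination library, the lowest group is also the least precisely counted.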

Other observations

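Replicate 1 held the lowest SLC7A11 level in each of the 4 groups, at 96.8, 71.4, 31.3 and 12.5 CPM, and SLC3A2 was lowest in replicate 1 in 0 of 4. Replicate 1 was lowest in all 4 groups for 201 of 12160 tested genes, 1.65%.

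Of the 10 genes nearest to SLC7A11 and the 5 nearest to SLC3A2, 8 and 4 had RefSeq promoter sequence. The amino acid response element matched in the 250 bases before a start of 1 and 0 of these, and the antioxidant element in 1 and 1. The gamma-activated and interferon-stimulated elements matched in 0 and 0. Over 35116 RefSeq starts these motifs, in the order named, matched in 3.14%, 10.9%, 6.57% and 3.02%. Those shares are per start, while the counts are per gene, from 10 and 5 starts, and no difference was tested.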
